A study of Mus musculus with 8 samples.

Results

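The genes described here are those of the unfolded protein response and the integrated stress response, the programmes by which a cell answers misfolded protein in its endoplasmic reticulum (ER) and other stresses that slow translation. They were taken as a list of 32 genes by name, and every probe set that the platform annotation assigns to 1 of them was used, without regard to its values. A probe set is the group of array probes that reports 1 transcript. The annotation named 64 probe sets for 31 of the 32 genes, out of 45037 probe sets for 17097 genes in all, and named none for Calr4, a calreticulin relative. Of the 31 genes, 13 were chaperones and foldases, 8 acted in ER degradation or translocation, 5 were stress sensors or transcription factors and 5 were targets of the transcription factor ATF4. The samples were interfollicular epidermis, the skin surface epithelium between hair follicles, of mice. In 4 arrays the labels give a conditional knockout of G9a (G9a cKO), the enzyme that methylates lysine 9 of histone H3 (gene Ehmt2), and in the other 4 arrays G9a WT. Both groups were treated every week with DMBA, a carcinogen, and TPA, a tumour promoter, on shaved back skin for 6 weeks from an age of 8 weeks, are labelled as 15 weeks old and were taken before tumours formed, so there was no untreated group. The labels name neither the Cre driver nor the deleted part of the gene, and leave unsaid whether replicates came from different animals, so p-values reflect only how these samples spread, which may be technical.

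The ER folds secreted and membrane proteins with the help of the Hsp70 chaperone BiP (Hspa5), its co-chaperones of the Dnaj family, the Hsp90 relative GRP94 (Hsp90b1), the lectin calnexin (Canx) and the protein disulfide isomerases. When unfolded protein accumulates, the membrane sensors IRE1 (Ern1), PERK (Eif2ak3) and ATF6 are released. IRE1 splices the Xbp1 messenger, ATF6 is cut to an active factor, and PERK phosphorylates the translation factor eIF2 alpha, which slows most translation but favours that of ATF4. XBP1 and ATF6 raise chaperones and degradation factors, and ATF4 raises amino acid synthesis genes, the factor CHOP (Ddit3) and the phosphatase subunit GADD34 (Ppp1r15a), which reverses the block. Epidermal keratinocytes make large amounts of membrane and secreted protein and of barrier lipid, and these programmes are known to be active during their differentiation. The arrays measured messenger levels, and neither Xbp1 splicing, the cutting of ATF6 nor the phosphorylation of eIF2 alpha was measured.

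The promoters of these genes are known for short DNA motifs that carry the response, and they are shown first. The genes were listed as known members of the response, so a high share of matches is no separate result. RefSeq promoter entries (GRCm38.p6) were found for 28 of the 32 genes, and the 250 bases before each annotated start were searched on both strands for 4 motifs. The ER stress response element ERSE was searched as CCAAT, then any 9 bases, then CCACG, and its variant ERSE-II as ATTGG, any 1 base, then CCACG. The core of the unfolded protein response element UPRE was searched as TGACGTGG, and the C/EBP-ATF response element CARE, bound by ATF4 with C/EBP partners, as TGATGNAA. ERSE and ERSE-II share their CCACG end, and the UPRE core ends in its reverse complement. ERSE was found in 9 of the 28 genes, 7 of them chaperones or foldases. Counted by promoter entry, it was in 9 of 31 (29%), and in 0.113% of all 32851 promoters of the same length (members included). ERSE-II was found in Herpud1 alone of the members and in 0.0304% of all promoters. CARE was found in Herpud1, Chac1 and Asns and in 3.45% of all promoters, and the UPRE core in no member and in 0.563% of all promoters. No match says only that these letters are not in this window.

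The matches are printed 5′ to 3′ in the orientation of the motif, the fixed letters in capitals and the gap in lower case, to show how the fixed ends recur while the gap varies from gene to gene. Hsp90b1 holds a pair of them, on opposite strands, and Calr4, for which there is no probe set, holds a further match that is not printed.
Hspa5, ERSE: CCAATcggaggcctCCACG
Hsp90b1, ERSE: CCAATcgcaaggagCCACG
Hsp90b1, ERSE: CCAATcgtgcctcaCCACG
Pdia6, ERSE: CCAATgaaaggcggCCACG
Canx, ERSE: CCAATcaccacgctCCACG
Dnajc3, ERSE: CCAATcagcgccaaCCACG
Creld2, ERSE: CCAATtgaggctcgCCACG
Herpud1, ERSE-II: ATTGGgCCACG
Syvn1, ERSE: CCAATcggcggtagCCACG
Derl3, ERSE: CCAATggggaagtcCCACG

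The 250 bases before the start are printed for 6 genes in the orientation of the gene, with the fixed letters of each match in capitals. Hspa5, Pdia6, Dnajc3 and Creld2 show ERSE in chaperone promoters, where the match of Creld2 lies on the strand opposite to the gene. Herpud1 shows ERSE-II with CARE, and Asns shows CARE close to the start. A match describes the letters and is neither a measured binding site nor a cause of any value given here.
Hspa5, chr2:34771840-34772089, plus strand: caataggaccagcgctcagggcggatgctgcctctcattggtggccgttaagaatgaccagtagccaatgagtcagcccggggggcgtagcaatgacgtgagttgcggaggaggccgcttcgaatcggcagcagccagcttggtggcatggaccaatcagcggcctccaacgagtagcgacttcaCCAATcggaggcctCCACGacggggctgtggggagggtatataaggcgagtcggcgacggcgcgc
Pdia6, chr12:17266339-17266588, plus strand: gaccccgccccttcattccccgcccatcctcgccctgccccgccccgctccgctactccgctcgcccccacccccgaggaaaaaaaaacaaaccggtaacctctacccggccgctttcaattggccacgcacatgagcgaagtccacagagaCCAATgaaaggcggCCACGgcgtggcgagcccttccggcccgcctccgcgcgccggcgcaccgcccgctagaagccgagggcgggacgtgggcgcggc
Dnajc3, chr14:118937682-118937931, plus strand: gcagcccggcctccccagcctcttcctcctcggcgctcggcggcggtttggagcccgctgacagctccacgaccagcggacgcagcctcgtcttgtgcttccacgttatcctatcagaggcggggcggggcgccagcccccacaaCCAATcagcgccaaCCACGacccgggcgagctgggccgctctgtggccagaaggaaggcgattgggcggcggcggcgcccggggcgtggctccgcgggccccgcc
Creld2, chr15:88819396-88819645, plus strand: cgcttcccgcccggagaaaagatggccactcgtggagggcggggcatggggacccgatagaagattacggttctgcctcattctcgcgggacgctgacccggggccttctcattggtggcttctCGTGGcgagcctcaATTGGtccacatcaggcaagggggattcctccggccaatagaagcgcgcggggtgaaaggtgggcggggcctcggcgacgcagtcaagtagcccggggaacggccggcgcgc
Herpud1, chr8:94386179-94386428, plus strand: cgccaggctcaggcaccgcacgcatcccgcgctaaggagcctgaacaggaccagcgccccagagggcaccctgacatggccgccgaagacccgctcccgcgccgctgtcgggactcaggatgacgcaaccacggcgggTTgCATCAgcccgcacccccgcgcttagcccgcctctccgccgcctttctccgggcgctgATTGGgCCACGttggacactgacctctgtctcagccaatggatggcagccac
Asns, chr6:7693210-7693459, minus strand: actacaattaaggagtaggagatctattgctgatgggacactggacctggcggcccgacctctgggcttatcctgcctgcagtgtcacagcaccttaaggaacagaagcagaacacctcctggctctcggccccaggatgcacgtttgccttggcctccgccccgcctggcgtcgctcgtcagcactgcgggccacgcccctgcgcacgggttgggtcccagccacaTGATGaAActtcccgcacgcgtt

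**Figure D1:**
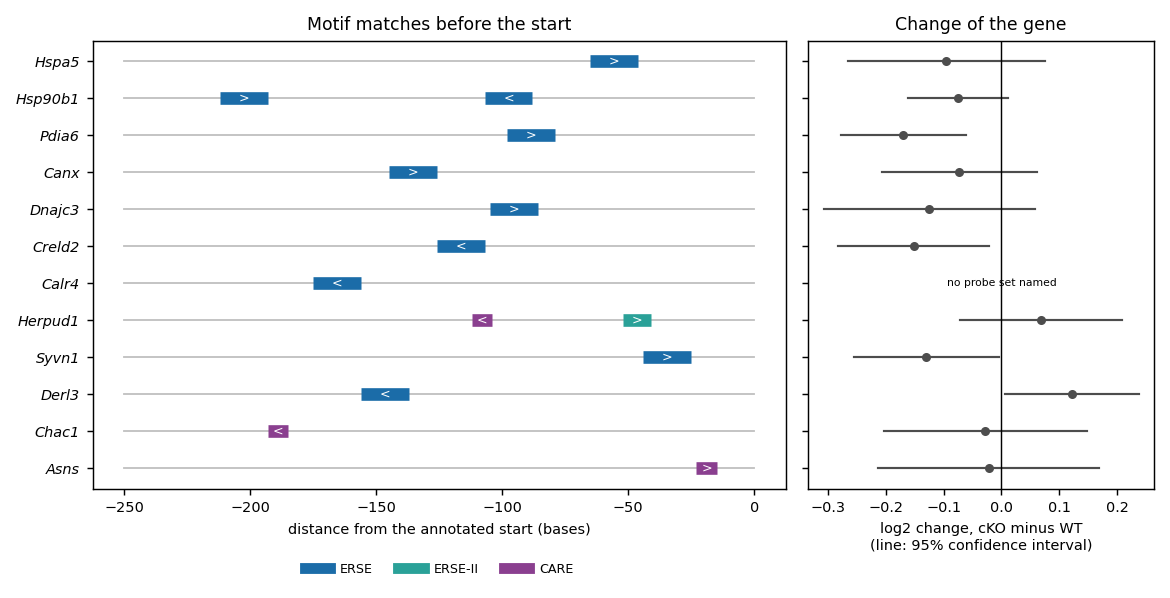
Left: position of each motif match before the annotated start (bases, start at the right end) in the 12 genes with a match, with arrowheads giving the strand relative to the gene. Right: log2 change of the same gene in cKO against WT at its representative probe set, with the 95% confidence interval as a line (Calr4 was not measured). Of the 9 measured genes with ERSE or ERSE-II, 7 read lower in cKO and Herpud1 and Derl3 read higher.

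The 8 arrays had medians of 5.72 to 5.80 on the log2 scale, and their number, 4 per group, limits the precision. Of the 2 probe sets of Ehmt2, 1 fell by 2.88 (SE 0.19, limma adjusted p = 0.000244) and the other stood at 0.01 (adjusted p = 0.996), and which of them lies in the deleted part is not given. WT 4 stood apart from the other WT arrays on the first principal component (-8.80, against 9.32 to 14.3), on the side of cKO 1, 3 and 4 (-12.5 to -2.49), while cKO 2 stood at 2.14. Results below are therefore given also without WT 4, or without both WT 4 and cKO 2, where that matters. These arrays were chosen for lying toward the other group in these same data, so leaving them out favours separation. Over all probe sets, 210 passed with all arrays, 356 without WT 4 and 657 without both. The defining keratins of epidermis were high in both groups: Krt5 read 12.63 ± 0.05 in cKO and 12.60 ± 0.04 in WT and Krt14 12.37 ± 0.04 in both (log2, mean ± SD, n = 4). The markers of other cell types, for fibroblasts, endothelium, melanocytes and plasma and B cells, were at most 6.49 in mean log2 level, whereas the lists of T cells and of Langerhans and myeloid cells reached 10.33, at Thy1, and 10.22, at Epcam, both of which epidermis can express, and Cd74 and H2-Aa of antigen presentation read 8.62 and 8.76 in cKO and 8.13 and 8.36 in WT. The hair follicle list reached 11.38, at Krt15, and the sebaceous gland list 9.77, at Scd1. Of all these lists 0 genes passed. In these bulk samples, fewer cells of a type and less RNA per cell cannot be told apart.

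No stress response gene passed the test, and the levels of the list lay slightly lower in cKO. Of 64 probe sets, 0 passed at a limma adjusted p under 0.05, where 0.466% of all 45037 probe sets did. At an unadjusted limma p under 0.05, 12 sets of 11 genes were found (18.8%, against 7.98% of all probe sets). Of these, 11 read lower in cKO, as did 2.92% of all probe sets, and 1, that of Derl3, read higher. The groups did not overlap at 8 probe sets of 8 genes (12.5%, against 4.89% of all probe sets), each time with all cKO arrays below all WT arrays, an order found in 1.72% of all probe sets. Several sets belong to 1 gene and these genes vary together across arrays, so the sets are not independent of each other. Represented by 1 probe set each, 24 of 31 genes read lower in cKO, against 45.2% of all genes, and the median change was -0.07, against 0.01 over all genes (log2). The representative is the set of highest 8-array mean, sets ending in _x_at or _s_at being used only where a gene has no other.

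Over the 64 probe sets the change was at most 0.26 in size, and the 95% confidence intervals ran from -0.42, for Sdf2l1, to 0.57, for Dnajb9. The standard errors ran from 0.04 to 0.21. Of the 17 genes with several probe sets, 4 had sets of both signs: Atf4, Derl1, Eif2ak3 and Ern1. Leaving out an array can only keep or raise the number of sets with groups apart. That number ran from 8 to 18 with single arrays left out. It was 18 without WT 4, where 11.6% of all probe sets were apart, 13 without cKO 4 (8.57% of all), of which 2 read higher in cKO, and 20 without both WT 4 and cKO 2 (19.6% of all). It was 5 of 31 with 1 probe set per gene (5.72% of all genes) and 5 of 41 without sets ending in _x_at, _s_at or _a_at (4.91% of all that were kept), which are smaller sets of probe sets.

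**Figure D2:**
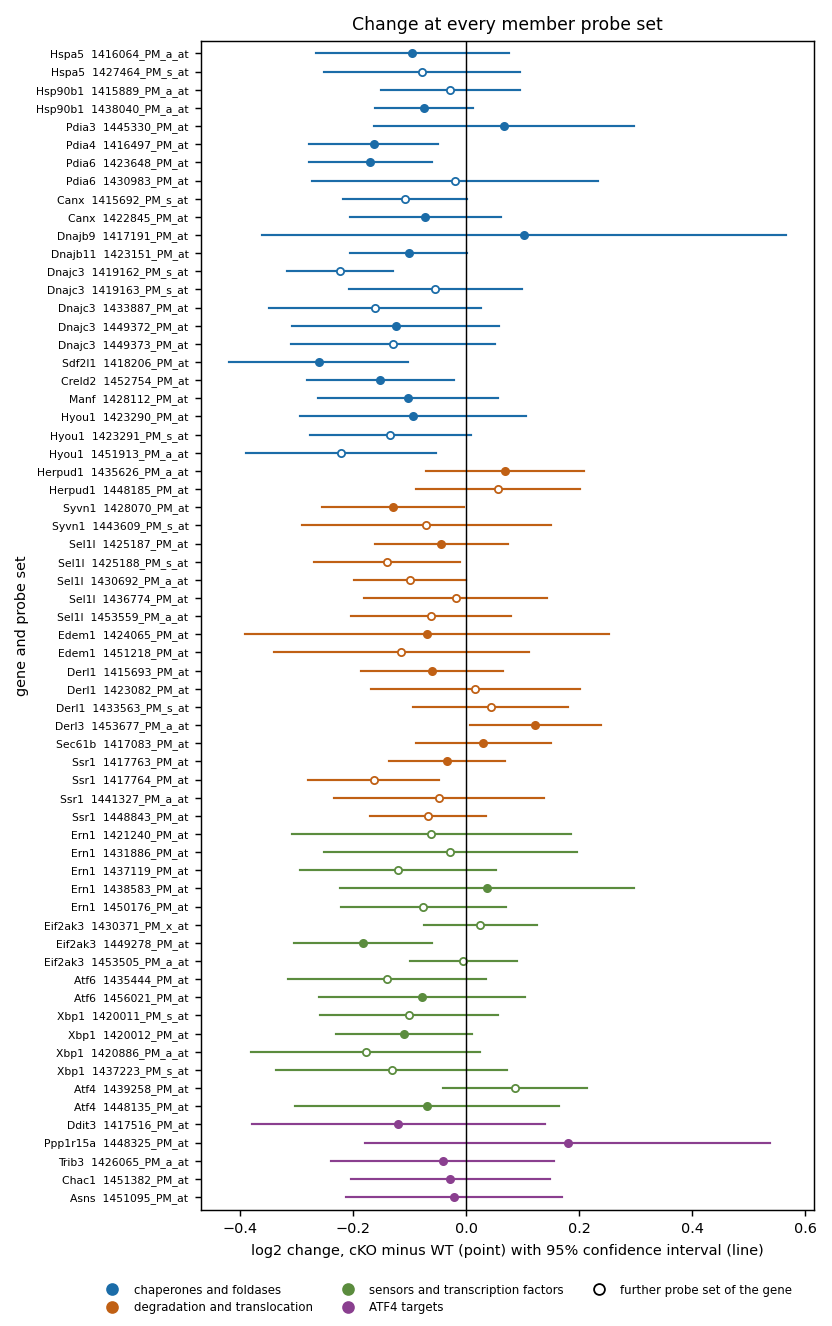
Log2 change in cKO against WT (horizontal axis) at each of the 64 probe sets (vertical axis, by gene), as a point with its 95% confidence interval as a line. Colours give the role of the gene and open points mark further probe sets of a gene. Most points lie left of 0, and all lie between -0.26 and 0.18.

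Among chaperones and foldases, 21 of 23 probe sets read lower in cKO and 0 of 23 passed (0.466% of all probe sets did). An unadjusted limma p under 0.05 was found at 6 of 23 (26.1%, against 7.98% of all probe sets). The nearest to the threshold in the whole list was 1 of the 5 probe sets of Dnajc3, a BiP co-chaperone that also inhibits PERK. Probe set 1419162_PM_s_at of Dnajc3 read 7.70, 7.61, 7.61 and 7.63 in cKO 1 to 4 and 7.85, 7.85, 7.91 and 7.83 in WT 1 to 4 (log2). The groups lay well apart, with a gap wider than the spread within either. Its change was -0.22 (SE 0.04, limma adjusted p = 0.0672), which is -14.4% on the linear scale, and p = 0.0286 by an exact two-sided permutation test, which can go no lower with 4 arrays a group. Every other probe set with groups apart has this same exact permutation p. The Dnajc3 set passed with each array centred on its median (-0.24, adjusted p = 0.0378) and with array weights (-0.25, adjusted p = 0.0135). Of all probe sets, 0.453% and 1.68% passed in these settings. In every other alternative that kept the Dnajc3 set, it did not pass. Its limma adjusted p there ran from 0.0583, with cyclic loess scaling, to 0.273, without cKO 3. The other probe sets of Dnajc3 stood between -0.16 and -0.05 and their groups overlapped. The suffix _s_at marks a set whose probes can match more than 1 transcript.

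Sdf2l1, which works with the ER co-chaperone ERdj3, had the largest difference in the list. It read 8.26, 8.31, 8.27 and 8.30 in cKO and 8.34, 8.59, 8.69 and 8.56 in WT. The cKO arrays were almost level, whereas WT 1 lay close above them and below the other WT arrays. Its change was -0.26 (SE 0.07, limma adjusted p = 0.252), or -16.6%. Pdia6, a disulfide isomerase that binds BiP, read 9.74, 9.62, 9.65 and 9.66 in cKO and 9.75, 9.85, 9.87 and 9.88 in WT. Here cKO 1 and WT 1 nearly touched, and the change was -0.17 (SE 0.05, adjusted p = 0.288). Its further probe set, 1430983_PM_at, stood at -0.02 with overlapping groups. Pdia4, a related isomerase, read 9.71, 9.75, 9.67 and 9.74 in cKO and 9.76, 9.90, 9.93 and 9.93 in WT. Again WT 1 was the lowest WT array, just above cKO 2, and the change was -0.16 (SE 0.05, adjusted p = 0.361). At 1438040_PM_a_at, the representative set of Hsp90b1, the cKO arrays lay at 11.57, 11.58, 11.55 and 11.61 and the WT arrays at 11.61, 11.67, 11.66 and 11.67. The groups parted by less than the last digit printed, between cKO 4 and WT 1, and the change was -0.07 (SE 0.04, adjusted p = 0.705). The further set of Hsp90b1, 1415889_PM_a_at, stood at -0.03 (limma adjusted p = 0.978) with overlapping groups, and cKO 4 was its highest array.

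The remaining chaperones overlapped between the groups at every probe set. Creld2, an ER-resident protein that is induced by ER stress, stood at -0.15 (SE 0.06, limma adjusted p = 0.518), with cKO 4 at 10.66 against 10.51 to 10.53 in the other cKO arrays. Hyou1, the nucleotide exchange factor of BiP, stood at -0.09, -0.13 and -0.22 at its 3 probe sets, and Manf, a secreted factor normally held in the ER, at -0.10. Dnajb11, which encodes ERdj3, stood at -0.10 and Canx at -0.07 and -0.11. Hspa5 itself read 10.17, 10.23, 10.10 and 10.13 in cKO and 10.26, 10.29, 10.41 and 10.04 in WT at its representative set. WT 4 was the lowest of all 8 arrays and the other WT arrays were the highest 3. Its change was -0.10 (SE 0.08, adjusted p = 0.883) and ran from -0.17 without WT 4 (adjusted p = 0.270) to -0.04 without WT 3. The 2 chaperone genes with a positive change were Pdia3 (ERp57), at 0.07, and Dnajb9 (ERdj4), at 0.10. Pdia3 was represented by 1 set of mean level 5.48, below the median of the arrays, and this level was not shown to lie above background. The sign of Dnajb9 turned with array weights, without WT 4 and without both WT 4 and cKO 2 (-0.05, -0.11 and -0.19), and that of Pdia3 without WT 4 and without both arrays (changes of -0.00 and -0.02).

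**Figure D3:**
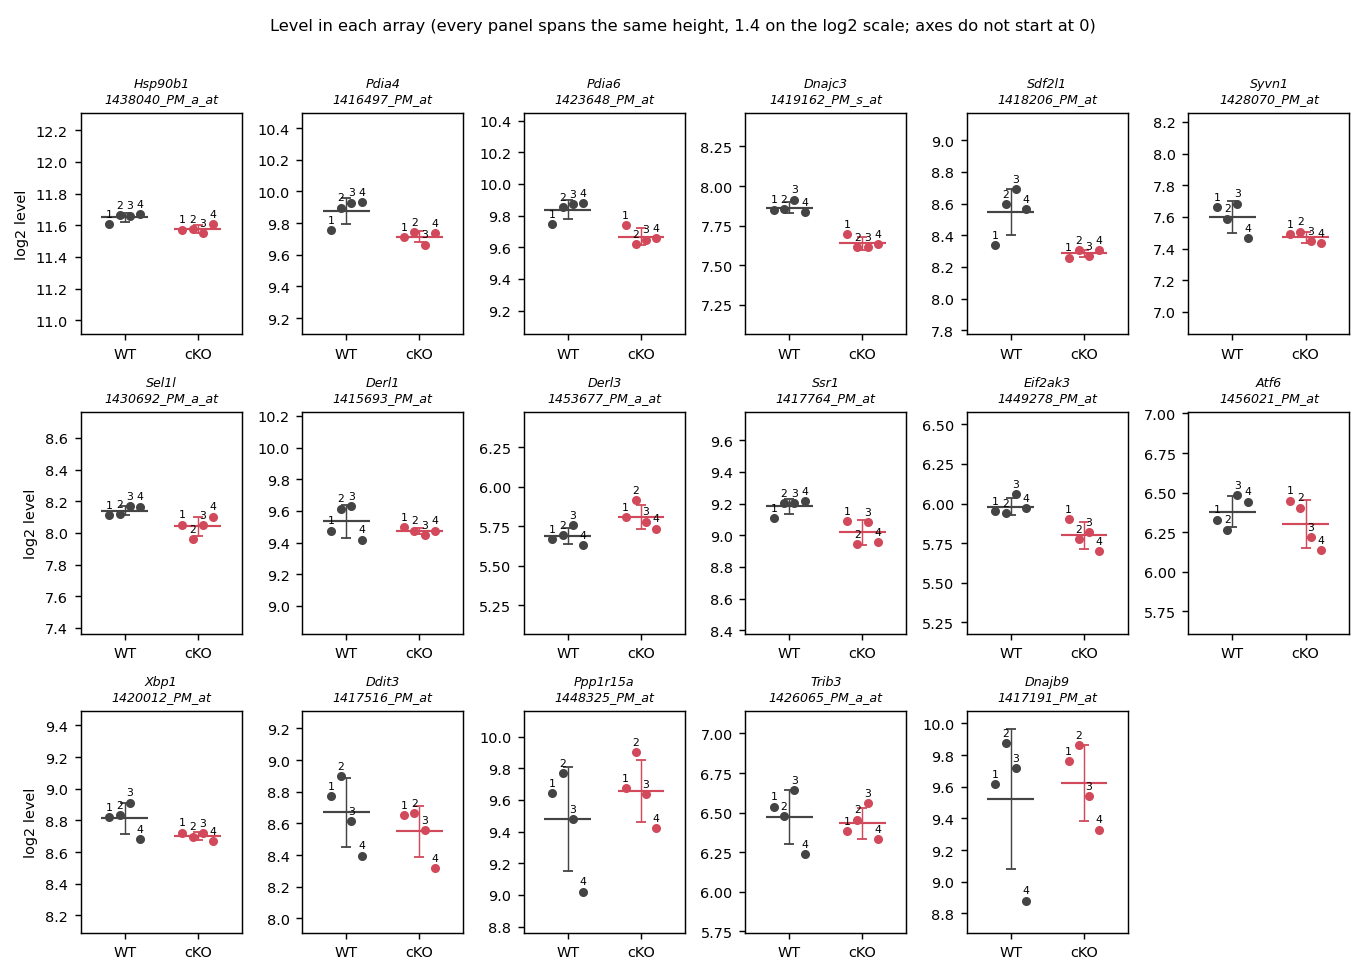
Log2 level in each array (points, numbered by replicate) with the mean (horizontal line) and SD (error bar) of each group of 4, for the probe sets described array by array and for Dnajb9. Dnajc3 and Sdf2l1 have all cKO points below all WT points, whereas in Dnajb9 and Ppp1r15a the array WT 4 lies far below the other WT arrays.

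In the group of degradation and translocation, 14 of 20 probe sets read lower in cKO and 0 of 20 passed (0.466% of all probe sets did). An unadjusted limma p under 0.05 was found at 5 of 20 (25.0%, against 7.98% of all probe sets), 4 lower and 1 higher. Syvn1 encodes the ubiquitin ligase HRD1 of ER-associated degradation. Its representative set, 1428070_PM_at, read 7.49, 7.51, 7.45 and 7.43 in cKO and 7.66, 7.59, 7.68 and 7.46 in WT. At this set the groups overlapped only through WT 4. Its change was -0.13 (SE 0.06, limma adjusted p = 0.597), and -0.18 without WT 4 (adjusted p = 0.176). The further set of Syvn1, 1443609_PM_s_at, had a higher mean level, 9.11 against 7.54. It stood at -0.07 (adjusted p = 0.961), and its groups overlapped also without WT 4. Sel1l, the adaptor that stabilises HRD1, had 1 of 5 probe sets with groups apart, 1430692_PM_a_at. That set read 8.05, 7.96, 8.05 and 8.10 in cKO and 8.11, 8.12, 8.17 and 8.17 in WT, a change of -0.10 (SE 0.04, adjusted p = 0.622). Only a narrow gap separated cKO 4 from WT 1, and the representative set of Sel1l stood at -0.04 with overlapping groups.

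Ssr1, a subunit of the translocon-associated complex that helps proteins enter the ER, was likewise apart at 1 of 4 probe sets. This set, 1417764_PM_at, read 9.09, 8.94, 9.08 and 8.95 in cKO and 9.11, 9.20, 9.20 and 9.21 in WT. Its change was -0.16 (SE 0.05, limma adjusted p = 0.375), whereas the representative set stood at -0.03 and the other sets at -0.07 and -0.05. Derl1, a derlin of the ER membrane, read 9.50, 9.48, 9.45 and 9.47 in cKO and 9.48, 9.61, 9.63 and 9.42 in WT. The cKO arrays lay inside the WT range, with a change of -0.06 (SE 0.06, adjusted p = 0.916). Derl3, a derlin known from secretory cells, was the only member with a positive change at an unadjusted p under 0.05. It read 5.81, 5.91, 5.78 and 5.74 in cKO and 5.67, 5.69, 5.76 and 5.63 in WT, a change of 0.12 (SE 0.05, adjusted p = 0.588), and the groups overlapped at cKO 4 and WT 3. Its level was near the array median and was not shown to lie above background. Among plasma and B cell markers, whose cells are known to express Derl3, 6 of 8 were measured, 0 passed, their summed linear level was 174 to 197 in cKO and 177 to 191 in WT, and the defining plasma cell gene Jchain read 3.41 ± 0.01 and 3.44 ± 0.04 (log2, mean ± SD). Herpud1, which links to the HRD1 complex, stood at 0.07 and 0.06, the translocon subunit Sec61b at 0.03, and Edem1, which hands glycoproteins to degradation, at -0.07 and -0.12.

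The sensors and their transcription factors had 13 of 16 probe sets lower in cKO and 0 of 16 that passed (0.466% of all probe sets did). An unadjusted limma p under 0.05 was found at 1 of 16 (6.25%, against 7.98% of all probe sets). That set was 1449278_PM_at, which represents Eif2ak3, the sensor kinase PERK. It read 5.90, 5.77, 5.82 and 5.70 in cKO and 5.95, 5.94, 6.06 and 5.97 in WT, a change of -0.18 (SE 0.05, limma adjusted p = 0.328). The other 2 sets of Eif2ak3 read 4.65 and 5.37 in cKO, at changes of 0.02 and -0.01. All these levels lay near or below the array median and were not shown to lie above background. The representative set of Atf6 read 6.45, 6.41, 6.22 and 6.14 in cKO and 6.33, 6.27, 6.48 and 6.44 in WT. The groups overlapped widely, with a change of -0.08 (SE 0.08, adjusted p = 0.933). Ern1, which encodes IRE1, stood at 0.04 at its representative set and between -0.12 and -0.03 at the other 4. The sign of the representative set turned without WT 4 (-0.02), without cKO 2 (-0.03), without both (-0.09) and with array weights (-0.12).

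Xbp1, whose messenger IRE1 splices, was the only member with a set that passed when a single array, WT 4, was left out. Its representative set read 8.72, 8.70, 8.72 and 8.67 in cKO and 8.82, 8.83, 8.91 and 8.68 in WT, so that WT 4 lay among the cKO arrays and the other WT arrays lay above all of them. The change was -0.11 (SE 0.05, limma adjusted p = 0.674). The same held at its other 3 probe sets, where WT 4 was the lowest of all 8 arrays. At 1420886_PM_a_at the values were 7.73, 7.72, 7.80 and 7.85 in cKO and 8.05, 8.05, 8.06 and 7.66 in WT. With all arrays its change was -0.18 (SE 0.09, adjusted p = 0.699), and without WT 4 it was -0.28 and passed (adjusted p = 0.0476). Of all probe sets, 0.79% passed without WT 4. Without both WT 4 and cKO 2 the change of this Xbp1 set was -0.26 and did not pass (adjusted p = 0.0632). Atf4 stood at -0.07 at its representative set and at 0.09 at a second set of low level, and the first ran from -0.17 without WT 4 (adjusted p = 0.382) to -0.02 without cKO 4. Of its WT arrays, WT 4 read 9.93 and the others 10.31 to 10.36.

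Of the 5 ATF4 targets, 4 read lower and 1 higher in cKO. Of these targets, 0 passed (0.466% of all probe sets did) and 0 had an unadjusted limma p under 0.05 (7.98% of all probe sets did). The median change was -0.03, and was 0.01 without WT 3 and -0.08 without WT 4. Ppp1r15a, the eIF2 alpha phosphatase subunit, read 9.67, 9.90, 9.64 and 9.42 in cKO and 9.64, 9.77, 9.48 and 9.02 in WT. Replicate 4 was the lowest array in each group, WT 4 far below the rest, and the change was 0.18 (SE 0.16, limma adjusted p = 0.909). Without WT 4 it was 0.03. Ddit3 (CHOP), a factor linked to death under lasting stress, read 8.65, 8.67, 8.56 and 8.32 in cKO and 8.77, 8.90, 8.61 and 8.40 in WT. The ranges overlapped over most of their length, and the change was -0.12 (SE 0.12, adjusted p = 0.919). It ran from -0.21 without WT 4 to -0.04 without cKO 4 and, likewise, without WT 2. Trib3, a pseudokinase induced by CHOP and ATF4, read 6.38, 6.46, 6.56 and 6.33 in cKO and 6.54, 6.48, 6.64 and 6.24 in WT, a change of -0.04 (SE 0.09, adjusted p = 0.982). Asns, asparagine synthetase, and Chac1, which degrades glutathione, stood at -0.02 and -0.03, the latter at a mean level of 4.67. The 95% confidence intervals of the 5 genes lay between -0.38 and 0.54.

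The genes differed in how much they varied from array to array within a group. The SD within groups, pooled over cKO and WT, was 0.35 for Dnajb9, 0.27 for Ppp1r15a and 0.24 for Edem1 at its representative set. It was 0.03 for the representative set of Hsp90b1. The median of this pooled SD was 0.09 over all probe sets and 0.11 over the 64 member sets. Dnajb9 read 9.76, 9.86, 9.54 and 9.33 in cKO and 9.62, 9.87, 9.72 and 8.88 in WT, a range of 0.99 over the 8 arrays. As in Ppp1r15a, Edem1, Ddit3 and Atf4, replicate 4 was the lowest array of each group. WT 4 was the lowest WT array in 18 of 31 genes (58.1%, against 30.7% of all genes), and WT 3 in 0 of 31 (23.8% of all genes). In cKO the lowest array was cKO 4 in 14 of 31 genes (45.2%, against 37.0% of all genes). Per array, the median of the 13 chaperone genes relative to their own means over 8 arrays was between -0.09 and -0.05 in cKO and -0.01, 0.11, 0.14 and -0.05 in WT 1 to 4. WT 2 and WT 3 were thus the high arrays, and WT 1 and WT 4 lay close to cKO. The median change of the chaperone genes was -0.10, and ran from -0.14 without WT 4 to -0.07 without WT 2 and, likewise, without WT 3.

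Marker lists of keratinocyte states were high or low in some of the same arrays. For the 7 measured of 8 markers of activated keratinocytes, the same median was 0.27 in WT 2 and 0.44 in WT 3. In the other 6 arrays it was between -0.19 and -0.02. Their summed linear level was 5712 to 6373 in cKO and 5503 to 9589 in WT, and 0 of the 7 passed. Of the 7, 5 read lower in cKO, from -0.09 at Sprr1b to -1.01 at Krt6b. S100a8 and S100a9 read higher, at 0.05 and 0.12. For the 11 measured of 12 proliferation markers the median was 0.09, 0.19, 0.04 and -0.12 in WT 1 to 4. In cKO 1 to 4 it was 0.12, 0.03, -0.11 and -0.23. All 11 read lower in cKO, from -0.00 at Aurka to -0.19 at Mcm2, and 0 passed, with a median change of -0.11. Their summed linear level was 5312 to 6412 in cKO and 5573 to 6718 in WT. For 9 of 10 measured epidermal markers the sums were 29093 to 30477 and 28891 to 29651. The part of these lists in the values of the stress response genes was not tested.

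**Figure D4:**
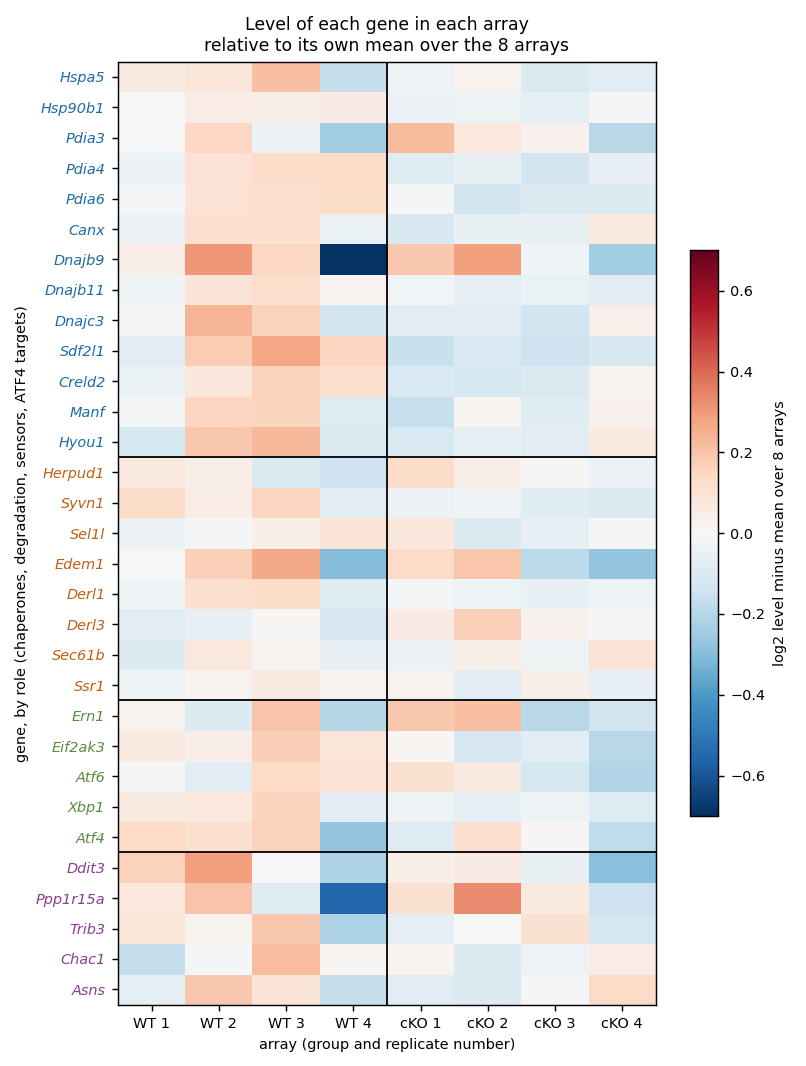
Log2 level of each of the 31 genes (rows, by role, at the representative probe set) in each array (columns), relative to the mean of that gene over the 8 arrays. Chaperone rows are mostly red in WT 2 and WT 3 and pale blue in cKO, and the darkest cells are Dnajb9 and Ppp1r15a in WT 4.

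The genes with ERSE or ERSE-II were mostly lower in cKO, as were those without. Of the 9 measured, 7 read lower in cKO, with changes between -0.17 and 0.12 and a median of -0.10. Of the 18 measured members with a promoter entry and neither motif, 13 read lower, with changes between -0.26 and 0.18 and a median of -0.04. Most genes with ERSE are chaperones, so the motif and the role overlap, and no difference was tested. Among measured chaperones with a promoter entry, those with ERSE stood between -0.17 (Pdia6) and -0.07 (Hsp90b1 and Canx). Those without it stood at -0.26 (Sdf2l1), -0.16 (Pdia4), -0.10 (Dnajb11), 0.07 (Pdia3) and 0.10 (Dnajb9). Outside the chaperones, Syvn1 with ERSE stood at -0.13, Derl3 with ERSE at 0.12 and Herpud1 with ERSE-II at 0.07. Sdf2l1 and Pdia4, among the larger differences, had no match in their 250 bases. Of 11 other measured genes with ERSE in the promoter table, among them the chaperone gene Calr and the ER oxidase gene Ero1b, 8 read lower and 3 higher, with a median of -0.01.

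The same pathways were followed in 87 further genes, of which 77 were measured at 151 probe sets. Only Vldlr, a lipoprotein receptor gene that ATF4 is known to induce, passed the test, and it fell. Thus 1 of the 151 probe sets passed, where 0.466% of all 45037 probe sets did. Of the 151 probe sets 17 had an unadjusted limma p under 0.05 (11.3%, against 7.98% of all probe sets), 14 lower (2.92% of all probe sets were lower at that p) and 3 higher. Of the 77 genes 51 read lower and 26 higher, against 45.2% of all genes lower, with a median of -0.02. Probe set 1442169_PM_at of Vldlr read 5.67, 5.73, 5.80 and 5.61 in cKO and 6.14, 5.97, 6.08 and 6.03 in WT. It fell by 0.35 (SE 0.06, limma adjusted p = 0.0349). At 3 of its other 4 sets the cKO arrays also lay below the WT arrays, with changes of -0.41, -0.38 and -0.25 that did not pass (adjusted p = 0.0693, 0.112 and 0.331), and at the last, 1451156_PM_s_at, the groups overlapped (-0.11). All of these levels lay near or below the array median. The call of 1442169_PM_at held without WT 2 (adjusted p = 0.0426) and without WT 4 (0.0445). It was lost without cKO 1, 2, 3 or 4 (0.0875, 0.0926, 0.0601 and 0.0799) and without WT 1 or WT 3 (0.131 and 0.143). Without cKO 1 another Vldlr set, 1438258_PM_at, passed instead (-0.48, adjusted p = 0.0135).

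By role, none of 14 measured further chaperones and foldases passed, with a median of -0.01. The disulfide isomerase gene Pdia5 stood at -0.14, Ero1b at -0.18, the ER reductase gene Dnajc10 at 0.17 and Crtap, of collagen modification, at -0.11 (limma adjusted p = 0.294, 0.453, 0.617 and 0.734). None of 18 further degradation and translocation genes passed, with a median of -0.02. Edem3 stood at -0.16, Nploc4, a cofactor of the segregase p97, at -0.13, Ssr3 at -0.09 and Srprb at -0.08 (adjusted p = 0.488, 0.587, 0.680 and 0.834). None of 14 further sensors and eIF2 alpha regulators passed, with a median of -0.02. The ER-bound factor genes Creb3l1 and Creb3l2 stood at -0.14 and 0.14, Eif2ak2, the kinase PKR, at 0.18 and Eif2b5 at -0.13 (adjusted p = 0.496, 0.575, 0.629 and 0.680). Of 31 further ATF4 and amino acid response genes, 1 fell, Vldlr, and the others did not pass, with a median of -0.03. Atf5, a factor close to ATF4, stood at -0.19, Cebpb, a C/EBP partner, at -0.14 and Eif4ebp1, which restrains cap-dependent translation, at 0.18 (adjusted p = 0.396, 0.524 and 0.554).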

How the data were processed

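Expression was measured in interfollicular epidermis of 4 G9a cKO and 4 G9a WT samples on 1-colour arrays. RNA was taken up in TRIzol, and 25 ng were amplified in 17 cycles, per the labels' protocols. RMA produced the deposited values, per the submitters' processing notes, and the sources used here do not give its version. The authors' deposited values were taken as log2 levels from their range, 3.06 to 13.0. RMA evens out the arrays, and would hide a shift common to all genes. Low levels were not tested against background.

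Of 45141 rows, 104 controls were left out. A single gene is annotated for 28898 probe sets, more than 1 for 551, and none here for 15588. Through Entrez numbers, 28689 received their present symbol from a RefSeq table (GRCm38.p6). cKO was compared with WT by limma 3.58.1 (lmFit and eBayes, R 4.3.3) across all 45037 probe sets, two-sided, Benjamini-Hochberg adjusted and called under 0.05, after the procedure was tested on simulated data. Exact permutation tests were two-sided over 70 arrangements. Array values are given, in each role group, for the 3 genes with the smallest p at their representative set and for every probe set with groups apart. Selection by p favours separation, so it is no separate support. Hspa5, Dnajb9 and the second Xbp1 set were added after their values were seen. Of further genes up to 4 per list are named, those past the threshold first, then by p. The members, the gene lists and the alternatives were chosen with earlier results of these data known. The alternatives were 1 probe set per gene, filters on dim sets, other scalings, another prior, array weights, a replicate block and leaving out arrays. Plots were drawn with matplotlib 3.10.9.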

Additional observations from a re-analysis of the deposited data

Results flagged for a closer look

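In groups of 4 arrays, an array was singled out when its distance from the nearest other, divided by the range of the group, exceeded Dixon's 95% critical value. This held in 4 of 68 groups examined (34 probe sets in both groups), where chance alone gives about 5% of groups. Atf4 read 9.93 in WT 4, against 10.31 to 10.36 in the other WT arrays. Creld2 read 10.66 in cKO 4, against 10.51 to 10.53 in the other cKO arrays. WT 1 was the low array at Hsp90b1, with 11.61 against 11.66 to 11.67, and at the second Ssr1 set, with 9.11 against 9.20 to 9.21.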

How the results depend on the processing

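Of 34 probe sets followed, the 31 representative sets and 3 others with groups apart, 1 passed under an alternative that kept it, Dnajc3 1419162_PM_s_at with median centring and with array weights. A set removed by a filter or by the choice of 1 set per gene has no value there, as Dnajc3 1419162_PM_s_at with 1 set per gene and without suffixed sets. Of all 64 sets, 1 passed with median centring (0.453% of all probe sets did), 1 with array weights (1.68%) and 1 without WT 4 (0.79%). Leaving out single arrays gave 0 to 1, and the genes counted likewise. Sets with groups apart numbered 5 with 1 set per gene, 5 without sets ending in _x_at, _s_at or _a_at, 20 without both cKO 2 and WT 4, and 8 to 18 with single arrays left out. The median of the ATF4 targets ran from -0.08 to 0.01 with single arrays left out, turning sign without WT 3, and those of the sensors from -0.15 without WT 4 to -0.02 without cKO 4. The call of Vldlr among the further genes was lost with the replicate block and without both cKO 2 and WT 4 (0 genes each), and single arrays left out gave 0 to 1. Signs turned in 9 of the 34 sets, all of them small changes: Pdia3 to -0.02 without cKO 2 and WT 4 (-0.00 to 0.14 with single arrays left out, the lowest without WT 4), Dnajb9 to -0.19 without both and -0.05 with array weights (-0.11 to 0.22 with single arrays left out, the lowest without WT 4), Sel1l to 0.01 and Ppp1r15a to -0.05 without cKO 2 and WT 4, Ern1 to -0.12 with array weights, and -0.09 without both (-0.03 to 0.11 with single arrays left out). With single arrays left out, Edem1 ran from -0.18 to 0.01, Trib3 from -0.12 to 0.01, Chac1 from -0.09 to 0.04 and Asns from -0.08 to 0.04. The cause was not tested.

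Same-numbered samples of both groups are not known to be paired. Their deviations from the group means correlated by 0.13, 0.22, -0.62 and 0.37 over all probe sets, so the numbers were not used as pairs. With the replicate block 175 of all probe sets passed, against 210, and 0 of 64 member sets.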
